A study of Mus musculus with 12 samples.

Results

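Blood coagulation and its counterpart, the removal of fibrin, were followed through 9 genes among the 19938 genes that the arrays gave: F3, F5, F10 and F13a1 of the clotting cascade, Thbd and Procr of the anticoagulant protein C pathway, Plau and Plaur of plasminogen activation, and Thbs1, a glycoprotein of platelets and matrix. They were chosen by symbol from what is known of their function, but with earlier results of these data known. The shares of all genes given beside their counts are therefore no test of the set. Each of the 9 has 1 probe set that the platform annotation assigns to that gene alone, so no choice between probe sets was needed. The tissue was spleen of C57BL/6 mice, and the labels name 3 groups of 4 biological replicates. Mice of the first were Toll-like receptor (TLR)-deficient, written Trifxmyd in the titles, and underwent colon ascendens stent peritonitis (CASP), in which a stent through the bowel wall lets gut bacteria into the abdomen. Those of the second were wildtype with CASP, and those of the last wildtype with no treatment. TLR-deficient mice without CASP were not analysed here, so genotype and the response to CASP cannot be told apart in the deficient group. The labels give neither the alleles, nor the age of the mice, nor the time from operation to sampling, and of the untreated samples the titles give a time of 0 h.

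Clotting starts when blood meets tissue factor (F3), a membrane protein of cells around vessels that monocytes also display in inflammation. Tissue factor with factor VII activates factor X (F10), which with its cofactor factor V (F5) makes thrombin. Thrombin cuts fibrinogen into fibrin, and factor XIII, whose catalytic subunit is F13a1, crosslinks the strands. Thrombin bound to thrombomodulin (Thbd) instead activates protein C, held at the cell surface by the endothelial protein C receptor (Procr), and activated protein C shuts the cascade down. Urokinase (Plau), gathered on cells by its receptor (Plaur), makes plasmin, which dissolves fibrin. In sepsis the balance between these arms shifts, with clot formation in small vessels and loss of anticoagulant protection.

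The arrays did not sort by their labels, which bears on every value below. Septic wildtype replicate 2 (M10) stood apart, with r of 0.76 to 0.81 across genes to the rest, against 0.96 to 0.99 among the other 11, and its log2 values had an SD of 1.52 against 2.11 to 2.24. Of the 12 arrays, 5 were most like an array of their own label. M8, labelled septic TLR-deficient, was most like M9, labelled septic wildtype; M12, labelled septic wildtype, was most like M13, labelled untreated; and M16, labelled untreated, was most like M5, labelled septic TLR-deficient. Whether the labels of these samples are right cannot be told from the deposited values, and every labelled mean, difference and p below takes them as given. Each title carries a running number, M5 to M16, and the values of these genes are given below by label and then by number. The labels place M5 to M8 in the septic TLR-deficient group, M9 to M12 in the septic wildtype group and M13 to M16 in the untreated wildtype group. The markers of spleen were at high values, with a mean log2 value per array of 8.18 to 10.16 over the 9 of 10 lymphoid and red pulp genes that were measured. On M5, M6, M7 and M16 that mean was 8.55 to 8.90, on M12 to M15 9.65 to 9.99 and on M8 to M11 8.18 (M10) to 10.16. The mean over 8 hepatocyte genes was 4.01 to 5.08, against array medians over all probe sets of 5.22 to 5.54. In whole spleen, fewer cells of a type and less RNA per cell cannot be told apart.

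The 250 bases before a transcription start that RefSeq lists are shown for Procr, Plaur and F10, the 3 genes that stood higher on M5, M6, M7 and M16 than on the other 8 arrays, and for F3, which starts the cascade. Sequences are from RefSeq on GRCm38.p6, read 5′ to 3′ towards the gene, with capitals for every match to the motifs named here. For F10 and F3 this start is the first base of the annotated gene, and for Procr and Plaur it lies inside the annotated gene, downstream of its first base. They lie on the plus strand at chr2:155750967-155751216 for Procr, chr7:24462233-24462482 for Plaur, chr8:13037058-13037307 for F10 and chr3:121723287-121723536 for F3.
Procr: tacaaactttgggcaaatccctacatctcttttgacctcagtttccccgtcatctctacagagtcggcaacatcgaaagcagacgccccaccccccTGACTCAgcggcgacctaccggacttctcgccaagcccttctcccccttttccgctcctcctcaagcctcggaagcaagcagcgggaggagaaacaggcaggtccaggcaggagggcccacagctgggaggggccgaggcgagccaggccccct
Plaur: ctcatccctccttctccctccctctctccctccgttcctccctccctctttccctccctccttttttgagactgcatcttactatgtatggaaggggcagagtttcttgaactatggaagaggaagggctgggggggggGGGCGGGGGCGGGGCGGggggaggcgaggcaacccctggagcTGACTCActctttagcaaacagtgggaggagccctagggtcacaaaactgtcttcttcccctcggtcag
F10: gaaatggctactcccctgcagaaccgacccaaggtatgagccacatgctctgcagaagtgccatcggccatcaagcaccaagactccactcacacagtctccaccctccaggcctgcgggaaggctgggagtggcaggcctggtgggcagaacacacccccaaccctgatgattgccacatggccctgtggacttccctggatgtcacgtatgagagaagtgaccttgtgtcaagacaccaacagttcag
F3: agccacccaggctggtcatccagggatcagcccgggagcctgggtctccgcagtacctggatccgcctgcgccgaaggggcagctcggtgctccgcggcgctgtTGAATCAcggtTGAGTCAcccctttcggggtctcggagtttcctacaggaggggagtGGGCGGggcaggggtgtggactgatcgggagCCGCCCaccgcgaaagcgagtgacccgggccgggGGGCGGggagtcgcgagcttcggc
The motifs searched, on both strands, were the AP-1 site TGANTCA, the GC box GGGCGG, the TATA box TATAAA, the interferon gamma-activated site TTCNNNGAA, the E-box CACGTG and the NF-kappaB consensus. AP-1 is a factor that immediate early genes build in activated cells. Its motif stood at 1 place in the Procr and the Plaur window and at 2 places in that of F3, and in none of the windows of F10, F5 and F13a1. Among 32544 such windows of mouse genes 6.73% hold it. The GC box, held by 33% of windows, was found at 3 places in Plaur, where matches overlap each other, at 3 in F3 and at 1 in F5. The other motifs, held by 12.3% (TATA box), 7.04% (interferon gamma-activated site), 6.03% (E-box) and 7.28% (NF-kappaB consensus) of windows, were not in the windows of these 6 genes. RefSeq windows were matched for 6 of the 9 genes.

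Tissue factor, the trigger, had an SD of 0.39 over the 12 arrays, smaller than that of every other member but F5. Its values ran from 4.47 to 5.94, where the array medians were 5.22 to 5.54. F3 had log2 values of 5.43, 5.08, 5.09 and 5.12 on the septic TLR-deficient arrays (replicates 1 to 4), 4.48, 5.38, 5.19 and 4.47 on the septic wildtype arrays and 5.06, 5.21, 5.09 and 5.94 on the untreated wildtype arrays. The lowest values were on septic wildtype replicates 1 and 4 and the highest on untreated replicate 4, and all 3 groups overlapped. Its mean was 5.18 ± 0.17 in the septic TLR-deficient group, 4.88 ± 0.47 in the septic wildtype group and 5.32 ± 0.41 in the untreated group (SD, n = 4 each).

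Factor X, the protease at which the pathways into the cascade meet, was the clotting factor with the clearest order of arrays. F10 stood at 7.84, 6.93, 6.64 and 5.93 on the septic TLR-deficient arrays, at 5.94, 6.51, 5.80 and 5.74 on the septic wildtype arrays and at 5.89, 6.57, 6.41 and 6.95 on the untreated arrays. Septic TLR-deficient replicates 1 to 3 and untreated replicate 4 held the 4 highest values, while septic TLR-deficient replicate 4 lay among the septic wildtype arrays. The difference between septic TLR-deficient and septic wildtype means was 0.84 on the log2 scale (SE 0.36), and it was 0.50 without septic TLR-deficient replicate 1. No listed motif was found in its promoter window, printed above.

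Factor V, the cofactor of factor X, was the flattest of the 9, with an SD of 0.22 over the 12 arrays. F5 ranged from 4.48 to 5.23 on the septic TLR-deficient arrays, from 4.53 to 5.09 on the septic wildtype arrays and from 4.67 to 4.77 on the untreated arrays. The groups overlapped throughout.

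Factor XIII subunit A is made by megakaryocytes and by monocytes and macrophages. F13a1 had values of 6.80, 5.71, 6.71 and 6.68 on the septic TLR-deficient arrays, 6.95, 6.20, 7.02 and 6.87 on the septic wildtype arrays and 6.79, 7.85, 8.12 and 6.15 on the untreated arrays. It stood highest on untreated replicates 2 and 3, and the other untreated arrays lay within the septic range. The mean over 7 of 10 measured platelet and megakaryocyte markers ranged from 7.22 to 7.59 on septic TLR-deficient arrays, from 6.97 to 7.80 on septic wildtype arrays and from 7.06 to 7.61 on untreated arrays. The part of these cells in the F13a1 values was not tested.

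The protein C receptor had the largest SD of the 9 over the 12 arrays, 1.11. Procr had log2 values of 8.85, 8.14, 7.96 and 6.37 on the septic TLR-deficient arrays, 6.13, 4.99, 6.53 and 6.62 on the septic wildtype arrays and 7.42, 7.33, 7.40 and 8.50 on the untreated arrays. All septic wildtype arrays lay below all untreated arrays, and septic TLR-deficient replicate 4 lay within the septic wildtype range. The means were 7.83 ± 1.05 in the septic TLR-deficient group, 6.07 ± 0.75 in the septic wildtype group and 7.66 ± 0.56 in the untreated group (SD, n = 4 each). Thrombomodulin, its partner in activating protein C, did not share this order. Thbd had values of 7.75, 7.79, 8.50 and 8.27 on the septic TLR-deficient arrays, 8.26, 6.96, 8.24 and 7.26 on the septic wildtype arrays and 7.85, 8.07, 7.97 and 8.38 on the untreated arrays. Its low values were on septic wildtype replicates 2 and 4, and the groups overlapped.

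Endothelial cells carry much of the Procr of blood vessels. The mean over 10 of 10 endothelial markers ranged from 6.68 to 7.23 on septic TLR-deficient arrays, from 5.93 to 7.23 on septic wildtype arrays and from 7.24 to 7.45 on untreated arrays, and its part in the Procr values was not tested. Cdh5, the cadherin of endothelial junctions, ranged from 6.82 to 8.62 on septic TLR-deficient arrays, from 5.94 to 7.37 on septic wildtype arrays and from 7.49 to 9.12 on untreated arrays. The septic wildtype arrays lay below the untreated arrays without overlap for Cdh5, as for Procr, and this held for 1 of the 10 endothelial markers, the other 9 overlapping. By number, Cdh5 ranged from 8.11 to 9.12 on M5, M6, M7 and M16, from 5.94 to 7.37 on M8 to M11 and from 6.68 to 7.63 on M12 to M15. It was the 1 endothelial marker of 10 with M5, M6, M7 and M16 above all other arrays, and 0 had them below all others. Against M12 to M15 alone, more markers set those 4 arrays apart. Tek (4.91 to 5.55 against 6.35 to 7.02) and Stab2 (7.21 to 7.84 against 8.48 to 9.51) lay below that set. So did Tie1 (7.17 to 7.45 against 7.49 to 8.13), while Emcn, like Cdh5, lay above it (4.11 to 5.07 against 3.86 to 4.04).

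Urokinase and its receptor went separate ways. Plau had values of 5.47, 5.33, 5.32 and 6.10 on the septic TLR-deficient arrays, 5.87, 5.11, 5.82 and 6.07 on the septic wildtype arrays and 5.97, 7.11, 7.40 and 4.98 on the untreated arrays. Its 2 highest values were on untreated replicates 2 and 3 and its lowest on untreated replicate 4, so that the untreated group spanned the whole range. Plaur had values of 8.83, 9.45, 8.65 and 7.43 on the septic TLR-deficient arrays, 7.32, 5.43, 7.70 and 7.86 on the septic wildtype arrays and 8.08, 7.94, 7.79 and 9.59 on the untreated arrays. Septic TLR-deficient replicates 1 to 3 and untreated replicate 4 were the 4 highest arrays for Plaur and 4 of the 5 lowest for Plau. Septic wildtype replicate 2 was also among those 5 for Plau (5.11), but had the lowest Plaur value (5.43). The mean of Plaur was 8.59 ± 0.84 in the septic TLR-deficient group, 7.08 ± 1.12 in the septic wildtype group and 8.35 ± 0.84 in the untreated group (SD, n = 4 each).

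Thrombospondin 1 is stored in platelets and laid down in matrix by activated stromal cells and macrophages, where it binds fibrin and helps activate TGF-beta. Thbs1 had values of 10.01, 9.29, 8.51 and 8.23 on the septic TLR-deficient arrays, 8.08, 6.43, 8.22 and 7.86 on the septic wildtype arrays and 8.50, 8.56, 8.57 and 10.14 on the untreated arrays. Every septic wildtype array lay below every array of either other group, by as little as 8.22 against 8.23 on septic TLR-deficient replicate 4. The means were 9.01 ± 0.80, 7.65 ± 0.83 and 8.94 ± 0.80 for the septic TLR-deficient, septic wildtype and untreated groups (SD, n = 4 each).

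**Figure D1:**
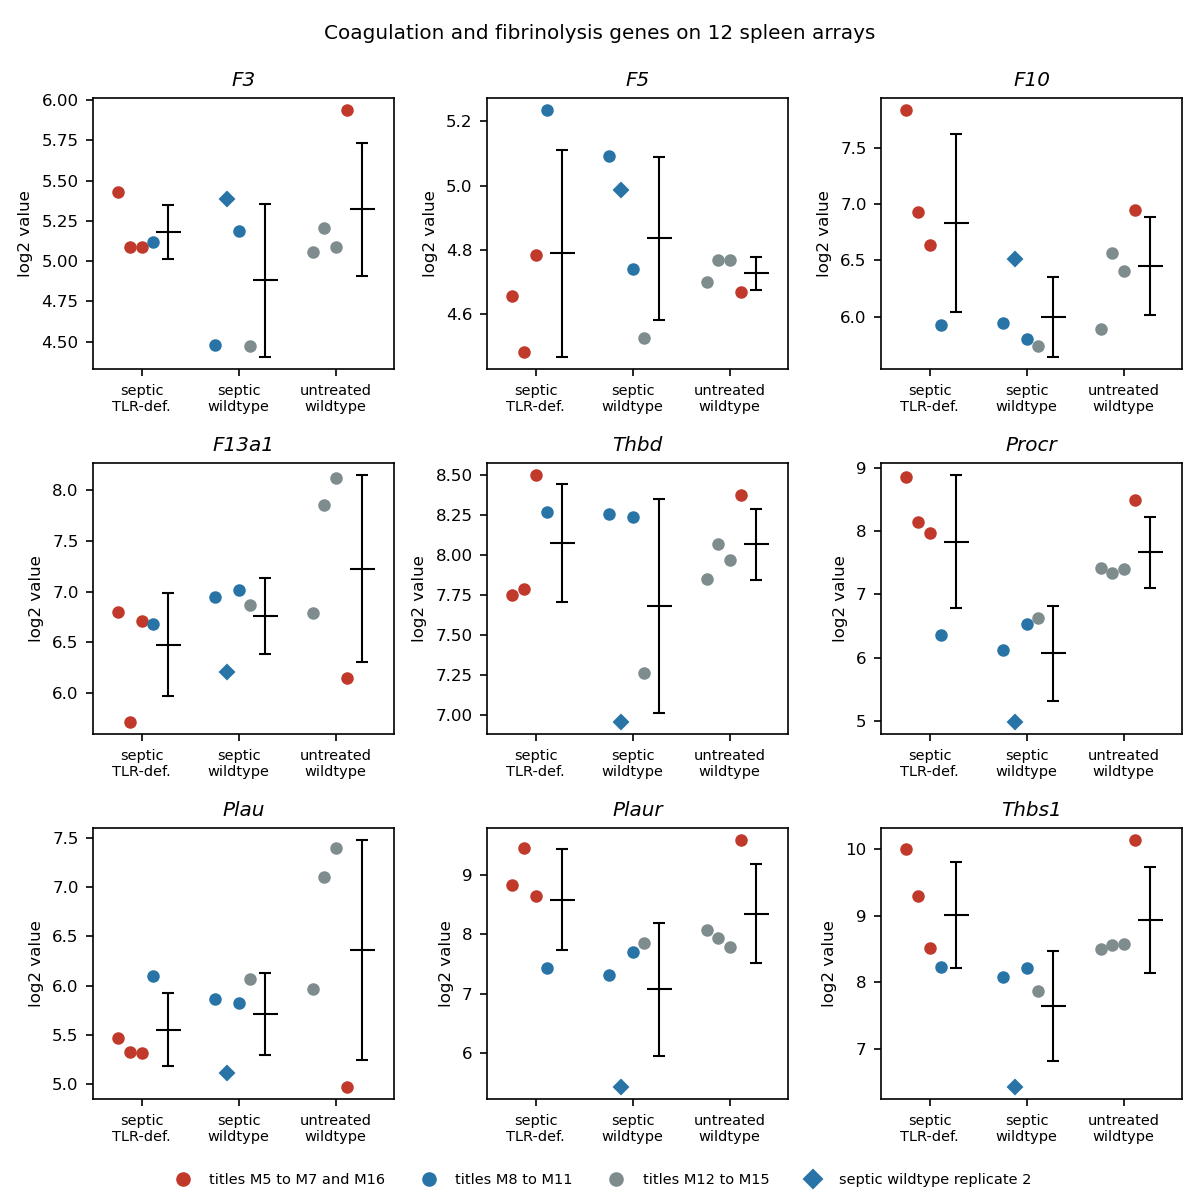
Log2 value (y axis) of each of the 9 genes on the 12 arrays, by labelled group (x axis), with bars for the mean and SD of 4 arrays and colours for the running number in the title. Procr, Plaur and F10 are highest on M5 to M7 and M16 and lower on M8, although M8 carries the septic TLR-deficient label and M16 the untreated label.

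The septic TLR-deficient and septic wildtype groups differ in genotype. A difference present before CASP cannot be told apart from one in the response to it. Here 6 of the 9 genes had a higher mean in the TLR-deficient group, as did 43.9% of all genes. Procr differed by 1.76 (SE 0.50), Plaur by 1.51 (SE 0.57), Thbs1 by 1.36 (SE 0.49) and F10 by 0.84 (SE 0.36) on the log2 scale. Thbd differed by 0.40 (SE 0.30) and F3 by 0.30 (SE 0.26). The means of F13a1 (-0.28, SE 0.40), Plau (-0.16, SE 0.44) and F5 (-0.05, SE 0.19) were lower in the TLR-deficient group. The median over the 9 genes was 0.40, against -0.06 over all 19938 genes. No member passed an adjusted p of 0.05 in limma (0 of 9, as for 0% of all genes), and their adjusted p-values ran from 0.590 to 0.904.

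At an unadjusted p under 0.05, 4 of the 9 were higher in this comparison (Procr, Thbs1, Plaur and F10), where 4.42% of all genes were higher at that level. Only for Thbs1 did the 2 groups not overlap, higher in the TLR-deficient group as for 2.05% of all genes. The unadjusted count was 2 without septic TLR-deficient replicate 1 (Procr and Plaur), where 606 of 19938 genes were at that level in either direction. It was also 2 without replicate 2 (Procr and Thbs1), where 899 genes were. Without septic wildtype replicate 2 it was 2 (Procr and F10), where 6.2% of all genes were at that level in either direction. The difference of Plaur was 0.96, that of Thbs1 0.96 and that of Procr 1.40, and the members whose groups did not overlap were Thbs1, higher as for 3.26% of all genes, and F13a1, lower as for 3.01%. On each of Procr, Plaur, Thbs1 and F10, septic TLR-deficient replicate 4 was the lowest array of its group.

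Septic and untreated wildtype spleens share a genotype and differ in CASP. No sham-operated group is among the arrays, so peritonitis cannot be told apart from the operation. In this comparison 8 of the 9 genes had a lower mean in the septic group, as did 44.9% of all genes. Procr differed by -1.59 (SE 0.50), Thbs1 by -1.29 (SE 0.49) and Plaur by -1.27 (SE 0.57). Plau (-0.65, SE 0.44), F13a1 (-0.47, SE 0.40), F10 (-0.46, SE 0.36), F3 (-0.44, SE 0.26) and Thbd (-0.39, SE 0.30) had lower means as well, and F5 a higher one (0.11, SE 0.19). The median over the 9 genes was -0.47, against 0.07 over all genes. Again 0 of 9 passed in limma (0% of all genes), with adjusted p-values of 0.439 to 0.719, and 3 of 9 (Procr, Thbs1 and Plaur) were lower at an unadjusted p under 0.05, as were 5.92% of all genes.

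For Procr and Thbs1 the septic wildtype arrays lay wholly below the untreated ones, as for 2.74% of all genes. Without septic wildtype replicate 2, Procr and Thbs1 still did not overlap, as for 3.38% of all genes in that direction, and Procr and F3 were the members at the unadjusted level, reached by 5.45% of all genes in either direction. The differences were then -1.24 for Procr, -0.89 for Thbs1, -0.72 for Plaur and -0.61 for F3. Without untreated replicate 4 the median of the 9 was -0.83, and the 3 members at the unadjusted level were Procr, Plau (-1.11) and F13a1 (-0.83), while Plaur (-0.86) and Thbs1 (-0.90) were not among them. With single arrays left out, 793 to 3193 of all genes were at that level in this comparison. Without untreated replicate 3, Plau differed by -0.30 and F13a1 by -0.17.

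Septic TLR-deficient and untreated wildtype spleens differ in both genotype and treatment, and here 6 of the 9 genes had a higher mean in the septic TLR-deficient group, as did 51.9% of all genes. The median difference was 0.06, against 0.01 over all genes, and it was -0.17 without septic TLR-deficient replicate 1. F10 (0.38, SE 0.36), Plaur (0.24, SE 0.57), Procr (0.17, SE 0.50), Thbs1 (0.07, SE 0.49), F5 (0.06, SE 0.19) and Thbd (0.01, SE 0.30) were the 6. Plau (-0.81, SE 0.44), F13a1 (-0.75, SE 0.40) and F3 (-0.14, SE 0.26) had lower ones. In limma 0 of 9 passed (0% of all genes), 0 had an unadjusted p under 0.05 (1.88% of all genes), and no member's groups stood apart (3.4% of all genes). Without untreated replicate 4, Plau (-1.27) and F13a1 (-1.11) were lower at the unadjusted level, and without untreated replicate 3 they differed by -0.46 and -0.45. With single arrays left out, 146 to 723 of all genes were at that level in this comparison. The 3 comparisons share groups, so their differences are not independent of each other.

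**Figure D2:**
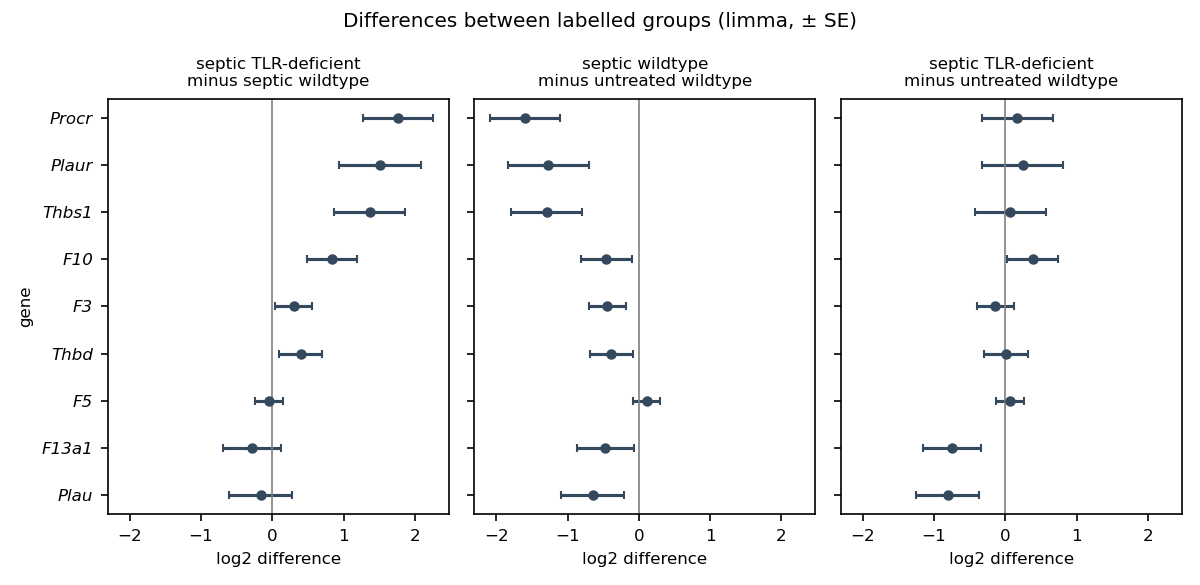
Difference of group means on the log2 scale (x axis) for the 9 genes (y axis) in the 3 comparisons, with bars for the standard error in limma. Procr, Plaur and Thbs1 lie above 0 in the left panel and below 0 in the middle one, and near 0 on the right.

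Set out by running number instead of label, M5, M6, M7 and M16 are 3 arrays labelled septic TLR-deficient and 1 labelled untreated, M8 to M11 are 1 septic TLR-deficient and 3 septic wildtype arrays, and M12 to M15 are 1 septic wildtype and 3 untreated arrays. These runs of numbers were drawn up with earlier results of these data known, so they are described with ranges and no test. Procr ranged from 7.96 to 8.85 on M5, M6, M7 and M16, from 4.99 to 6.53 on M8 to M11 and from 6.62 to 7.42 on M12 to M15. Plaur ranged from 8.65 to 9.59, from 5.43 to 7.70 and from 7.79 to 8.08 on the same 3 sets. For Procr and Plaur the 3 sets did not overlap, with or without septic wildtype replicate 2 (M10).

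F10 ranged from 6.64 to 7.84 on M5, M6, M7 and M16, above the other 8 arrays, which ran from 5.74 to 6.57. Among all genes, 1.72% had those 4 arrays above the other 8, and of the 9 genes 3 did. M8 to M11 lay below the other 8 arrays for Procr and Plaur, as for 2.12% of all genes, and 2.63% without M10. Thbs1 ranged from 8.51 to 10.14 on M5, M6, M7 and M16, from 6.43 to 8.23 on M8 to M11 and from 7.86 to 8.57 on M12 to M15, with M7 inside the range of M12 to M15. Plau ran the other way, from 4.98 to 5.47 on M5, M6, M7 and M16 and from 5.97 to 7.40 on M12 to M15. On M8 to M11 it ranged from 5.11 to 6.10, and without M10 from 5.82 to 6.10, so that M5, M6, M7 and M16 were then below all other arrays, as for 5.07% of all genes. F3, F5, F13a1 and Thbd overlapped between the sets.

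**Figure D3:**
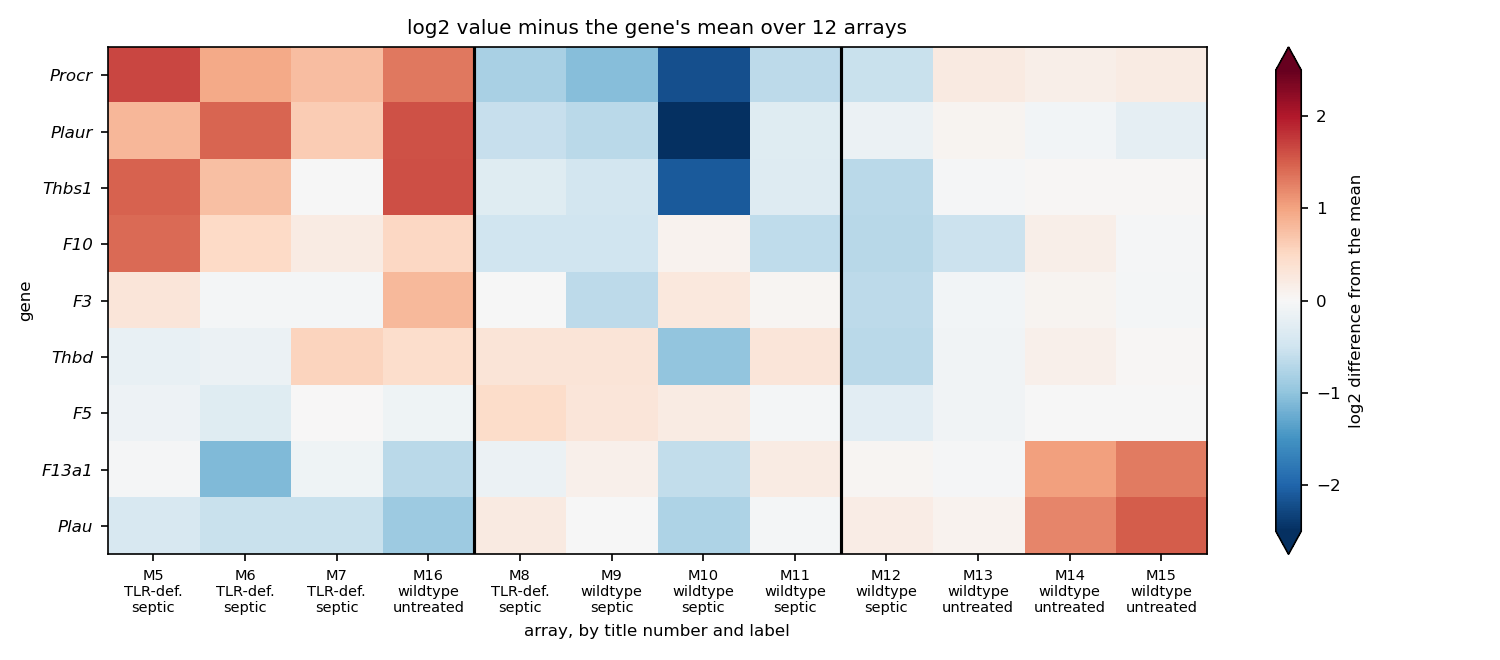
Deviation from the gene's mean of 12 arrays (colour, in log2 units) for the 9 genes (rows) on each array (columns), in 3 sets by the running number of the title, with the label under each number. Procr, Plaur, Thbs1 and F10 are above their means on M5, M6 and M16, and M10, labelled septic wildtype replicate 2, is far below the mean for Procr, Plaur and Thbs1.

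No mean over a marker list set M5, M6, M7 and M16 apart from all other arrays. The mean over 8 of 10 measured monocyte and macrophage markers ranged from 8.31 to 8.86 on septic TLR-deficient arrays, from 7.23 to 8.65 on septic wildtype arrays and from 8.39 to 8.61 on untreated arrays. By number it ranged from 8.31 to 8.86 on M5, M6, M7 and M16, from 7.23 to 8.65 on M8 to M11 and from 8.25 to 8.60 on M12 to M15, so that the sets overlapped. Of its 8 genes 1 had M5, M6, M7 and M16 above all other arrays (Cd14) and 1 had them below (Ccr2), and the other 6 overlapped. Cd14, the lipopolysaccharide co-receptor, ranged from 9.65 to 11.26 on M5, M6, M7 and M16, against 5.71 to 6.75 on M8 to M11 and 6.58 to 8.41 on M12 to M15. Ccr2, the receptor of inflammatory monocytes, ranged from 4.57 to 5.03 on M5, M6, M7 and M16, below both other sets (5.78 to 7.43 and 6.61 to 7.19). The mean over 10 neutrophil markers ranged from 6.58 to 7.49, from 6.58 to 8.40 and from 6.01 to 8.43 in the septic TLR-deficient, septic wildtype and untreated groups, and by number the neutrophil mean ranged from 6.01 to 7.49 on M5, M6, M7 and M16, from 6.58 to 7.06 on M8 to M11 and from 7.38 to 8.43 on M12 to M15. The mean over 6 fibroblast markers ranged from 7.54 to 8.26, from 6.81 to 8.34 and from 7.89 to 8.41 in the same 3 groups. The lymphoid and red pulp mean, given above, was lower on M5, M6, M7 and M16 than on every other array except M10, with 2 of its 9 genes below all other arrays there. The part of any of these cells in the values of the 9 genes was not tested.

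Likeness to other genes was measured for the 3 members that varied most, as the root mean square distance between profiles over the 12 arrays after each gene's own mean was taken off. Nearest to Procr were Sod2, the mitochondrial superoxide dismutase (0.33), Chst11, a chondroitin sulfotransferase (0.33), and Mmp14, a membrane-bound matrix protease (0.36), where the median distance over all genes was 1.15. Nearest to Plaur were Bcl2l11, which encodes the apoptosis inducer Bim (0.24), Tnip2, an inhibitor of NF-kappaB signalling (0.24), and Ssh2, a cofilin phosphatase (0.25), against a median of 1.14. Nearest to Thbs1 were Hif1a, the oxygen-sensitive transcription factor (0.23), Rapgef2, an exchange factor for Rap GTPases (0.23), and Cdh17, a cadherin (0.26), against a median of 1.03. These distances are in log2 units and describe these 12 arrays, on which septic wildtype replicate 2 is far from the rest for all 3 members.

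Of 43 other genes of coagulation and fibrinolysis 38 were measured, and 0 passed in limma in any comparison. Of these, 14 had a higher and 24 a lower mean in the TLR-deficient than in the wildtype septic group, with a median of -0.13 (-0.06 over all genes). Without septic wildtype replicate 2, 18 had a higher mean and the median was -0.0083 (-0.0084 over all genes). In the full set 1 in each direction had an unadjusted p under 0.05, as had 4.42% (higher) and 2.22% (lower) of all genes. The largest positive differences were those of Plat, the tissue plasminogen activator (1.26, SE 0.79), Fgl2, a membrane prothrombinase of activated macrophages and T cells (1.21, SE 0.68), and Serpinb2, an inhibitor of urokinase (0.89, SE 0.35). The largest negative ones were those of Ggcx, the carboxylase that readies vitamin K-dependent factors (-0.53, SE 0.29), and of the fibrinogen chains Fgg (-0.52, SE 0.30) and Fga (-0.51, SE 0.34). Without septic wildtype replicate 2, Fgl2 differed by 0.27, Fgg by -0.14 and Fga by -0.07, while Plat differed by 1.44, Serpinb2 by 0.86 and Ggcx by -0.59. Without septic TLR-deficient replicate 4 Plat differed by 1.94, and without replicate 1 Serpinb2 differed by 0.52.

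Plat had the same 4 highest arrays as Plaur, but not the same order among the other 8. It had log2 values of 6.95, 7.20, 7.35 and 4.45 on the septic TLR-deficient arrays, 5.15, 5.75, 5.35 and 4.64 on the septic wildtype arrays and 5.51, 4.95, 5.12 and 8.71 on the untreated arrays. M5, M6, M7 and M16 were thus the 4 highest arrays, from 6.95 upwards, with the other 8 at 5.75 or below. F2rl3, the thrombin receptor PAR4 of platelets, was the other one of the 38 with those 4 arrays on top (6.95 to 7.46, against 6.22 to 6.74), while Vwf, Ggcx and S100a10 had them at the bottom, as had 1.85% of all genes. S100a10 is part of the cell-surface plasminogen receptor, and Vwf tethers platelets to vessel walls.

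Between septic and untreated wildtype arrays 25 of the 38 had a higher and 13 a lower mean in the septic group, with a median of 0.15 (0.07 over all genes). Without septic wildtype replicate 2, 22 had a higher mean and the median was 0.046. At an unadjusted p under 0.05, 2 were higher and 1 lower, against 2.89% and 5.92% of all genes. The largest positive differences were those of Serpind1, a thrombin inhibitor (0.61, SE 0.23), Fgg (0.61, SE 0.30) and F13b, the carrier subunit of factor XIII (0.57, SE 0.32). Without septic wildtype replicate 2 they were 0.38, 0.22 and 0.15. The untreated means of Serpind1, Fgg and F13b were 4.18, 3.24 and 2.53, below the array medians of 5.22 to 5.54. The largest negative differences were those of Fgl2 (-1.75, SE 0.68), Plat (-0.85, SE 0.79) and Anxa2, a plasminogen-binding annexin (-0.69, SE 0.46). Without septic wildtype replicate 2 those were -0.81, -1.03 and -0.17. Without untreated replicate 4, whose Plat value was 8.71, Plat differed by 0.030. Fgl2 stood at 8.15, 4.62, 8.33 and 8.74 on the septic wildtype arrays and at 8.68, 9.14, 9.32 and 9.70 on the untreated arrays. By role, 12 of 13 plasma factors and 7 of 10 anticoagulants had higher means in the septic wildtype group, against 55.1% of all genes. The median of the plasma factors was 0.30, and without septic wildtype replicate 2 it was 0.10, with 11 of 13 higher. Over all genes without that array the median was 0.024, with 55.3% higher. The 8 hepatocyte markers had higher means in the septic wildtype group as well (8 of 8, median 0.42), with a mean of 5.08 on septic wildtype replicate 2 and 4.71 on replicate 1 where the other arrays lay between 4.01 and 4.18. Their part in these counts was not tested.

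Between septic TLR-deficient and untreated arrays 23 had a higher and 15 a lower mean, with a median of 0.03 (0.01 over all genes). Serpinb2 (0.47, SE 0.35), Plat (0.41, SE 0.79) and F7, the partner of tissue factor (0.38, SE 0.19), had the largest positive differences. Fgl2 (-0.54, SE 0.68), Plgrkt, a plasminogen receptor (-0.43, SE 0.44), and Ggcx (-0.37, SE 0.29) had the largest negative ones. With single arrays left out, Plat ranged from 0.040 to 1.29, Serpinb2 from 0.10 to 0.73, Plgrkt from -0.73 to -0.11 and Ggcx from -0.59 to -0.19.

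**Figure D4:**
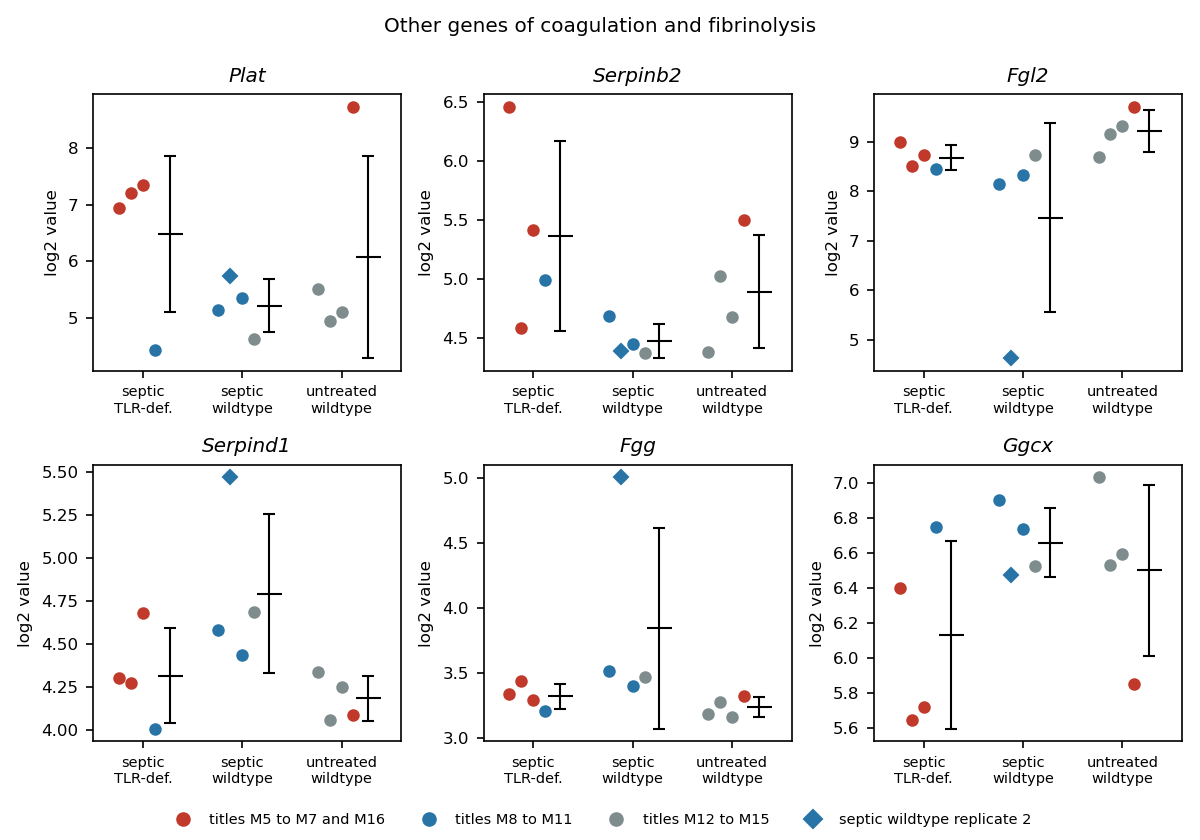
Log2 value (y axis) of 6 further genes of coagulation and fibrinolysis on the 12 arrays, by labelled group (x axis), with bars for the mean and SD of 4 arrays. Plat is highest on M5 to M7 and M16 whatever the label, and for Fgl2, Serpind1 and Fgg the array labelled septic wildtype replicate 2 is far from the others of its group.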

How the data were processed

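RNA of 12 mouse spleens was read on Affymetrix arrays. Per the labels' protocols, cDNA was made, amplified and biotinylated with Affymetrix whole-transcript kits. The authors' deposited log2 values, 1 for each probe set, were made with RMA in Affymetrix Expression Console, per the submitters' processing notes; versions and genome build are not given in the sources used here. RMA gives no detection call, so whether a low gene is above background is unknown here.

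Of 35557 probe sets, 21789 have 1 symbol, 1621 several and 12147 none, by a platform annotation. Symbols were updated by gene ID for 21698. Where a gene had several probe sets, the one highest on average over the 12 arrays was kept, giving 19938 genes. Groups follow the labels. limma 3.58.1 in R 4.3.3 fitted 1 mean per group over all 12 arrays, with two-sided moderated tests, adjusted over all genes by Benjamini and Hochberg (threshold 0.05); its SE is quoted. The number of arrays limits precision. The rule for named genes was all 9 members, the 3 largest differences per direction among listed pathway genes, and the 3 nearest profiles of the 3 most variable members. Cdh5, Tek, Stab2, Tie1, Emcn, Cd14 and Ccr2 among the markers, and F2rl3, Vwf and S100a10, were named after their values were seen. Members and lists were chosen with earlier results of these data known. The procedure was tested on simulated data. In the fit reported, replicate numbers were not used to pair the samples. The alternatives tried are listed in the closing section. Figures used matplotlib 3.10.9 in Python 3.11.15.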

Additional observations from a re-analysis of the deposited data

Results flagged for a closer look

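For independent pairs, chance flags a sample far from the other 3 of its label in about 1 in 20. The 9 genes were read on the same arrays and the share over all genes was not counted, so this rate is no test here. Such a sample was found in 6 of 27 gene and group pairs. The array labelled untreated wildtype replicate 4 (M16) accounts for 4 of them: Thbs1 at 10.14 where the other 3 lay between 8.50 and 8.57, Procr at 8.50 against 7.33 to 7.42, Plaur at 9.59 against 7.79 to 8.08 and F3 at 5.94 against 5.06 to 5.21. On septic TLR-deficient replicate 1, F3 stood at 5.43, with the other 3 at 5.08 to 5.12. On septic TLR-deficient replicate 2, F13a1 stood at 5.71, with the other 3 at 6.68 to 6.80.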

How the results depend on the processing

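The alternatives were a further quantile normalization, arrays centred on their medians, dim genes left out (all 9 members stayed), probe sets averaged per gene, only the arrays of the 2 groups, array weights, robust and trended variances, a replicate block and each array left out in turn. Under all of them 0 of the 9 genes passed; the lowest adjusted p in limma was 0.115, for Procr with array weights between septic and untreated wildtype, where it was 0.439 in the fit reported. With array weights 1 gene passed there, Smoc2, which is no coagulation gene. With the replicate block 0 genes passed and the median differences of the 9 stayed at 0.40, -0.47 and 0.06. The deviations of same-numbered arrays from their group means had r between -0.54 and 0.14. Between septic TLR-deficient and untreated arrays r was negative for every replicate number, from -0.54 to -0.15. M8, M12 and M16, described above as most like an array of another label, are each replicate 4 of their group. Leaving out single arrays, the median difference of the 9 ran from 0.26 to 0.59 between septic TLR-deficient and septic wildtype, from -0.83 to -0.42 between septic and untreated wildtype and from -0.17 to 0.11 between septic TLR-deficient and untreated. Members that changed sign under another processing were F5 (0.15) and Plau (0.025) between the septic groups and F5 (-0.15) and Thbd (0.024) between septic and untreated wildtype with quantile normalization. With array weights they were Thbd (-0.040 between the septic groups, 0.054 between septic and untreated wildtype) and F3 (0.014 between septic TLR-deficient and untreated); the cause was not tested. With single arrays left out, signs changed for F5 between the septic groups (-0.19 to 0.056), and between septic TLR-deficient and untreated for Procr (-0.17 to 0.66), Plaur (-0.045 to 0.66), Thbs1 (-0.26 to 0.47), Thbd (-0.13 to 0.12), F5 (-0.086 to 0.16) and F3 (-0.23 to 0.064). Genes at an unadjusted p under 0.05 numbered 606 to 2201, 793 to 3193 and 146 to 723 with single arrays left out, and 2500, 3773 and 2869 with array weights, in the 3 comparisons in that order, against 1325, 1756 and 375 as reported.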
